A study of Mus with 4 samples.

Results

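The CREB3 family and the ATF6 factors were followed in murine podocytes that overexpressed OASIS, together with the proteases that release these factors from the membrane. Members were chosen by gene symbol, and every array probe annotated to Creb3, Creb3l1, Creb3l2, Creb3l3, Creb3l4, Atf6, Atf6b, Mbtps1 or Mbtps2 was taken. These 9 of the 26893 gene symbols on the array were read by 20 of its 56605 probes that are not controls.

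The 5 CREB3 family proteins and the 2 ATF6 proteins are bZIP transcription factors that are made as precursors held in the membrane of the endoplasmic reticulum (ER). On release they travel to the Golgi apparatus, where site-1 protease (S1P, the product of Mbtps1) and then site-2 protease (S2P, the product of Mbtps2) cut them, and the freed N-terminal part enters the nucleus. OASIS, the product of Creb3l1, is known for collagen secretion in bone and for its expression in astrocytes, and ATF6 for the induction of ER chaperones during the unfolded protein response. The active form of OASIS is the N-terminal part that remains after cleavage.

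Total RNA came from an immortalized murine podocyte cell line that had been differentiated at the nonpermissive temperature without interferon-γ. Podocytes are the epithelial cells that wrap the glomerular capillaries. The 2 Venus samples received a lentivirus for Venus, a fluorescent protein used as the control, and the 2 OASIS samples received a lentivirus that encoded active OASIS. The study's methods give a vector with an EF promoter for the insert. In both groups, RNA was harvested 48 h after the lentiviral treatment. All samples therefore received a lentiviral vector and came from a single cell line, and no untreated sample was analysed here. The labels do not say whether samples 1 and 2 of a group came from separate cultures, so that the p-values measure only the spread between these samples, which may be technical.

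A 1-colour Agilent array was used for each sample, and the 4 arrays lay on 1 slide read in 1 scan. Between 57.2% and 58% of the 59305 spots that are not controls were well above background on each array. Of 13 podocyte markers, 9 were well above background on both arrays of each group, among them Wt1, Synpo and Cd2ap, while Ptpro and Tcf21 were not well above background on any array. On the Venus arrays, Wt1 lay near the limit of detection. Values below are log2 intensities relative to the 75th percentile of the array, and a difference is OASIS minus Venus on this scale. A probe was tested with limma when Venus 1 and 2, or OASIS 1 and 2, were both well above background, and it was called when it passed a fold over 2 or under 0.5 with an adjusted p under 0.1. These are the limits of the study's methods, which set the latter on a q-value, and the Benjamini-Hochberg adjustment over all 31598 probes tested was chosen here. Precision is limited by the 2 arrays per group, for which the smallest two-sided p of an exact permutation test is 0.333. In these bulk samples, fewer cells that express a gene and less RNA per cell cannot be told apart.

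**Figure D1:**
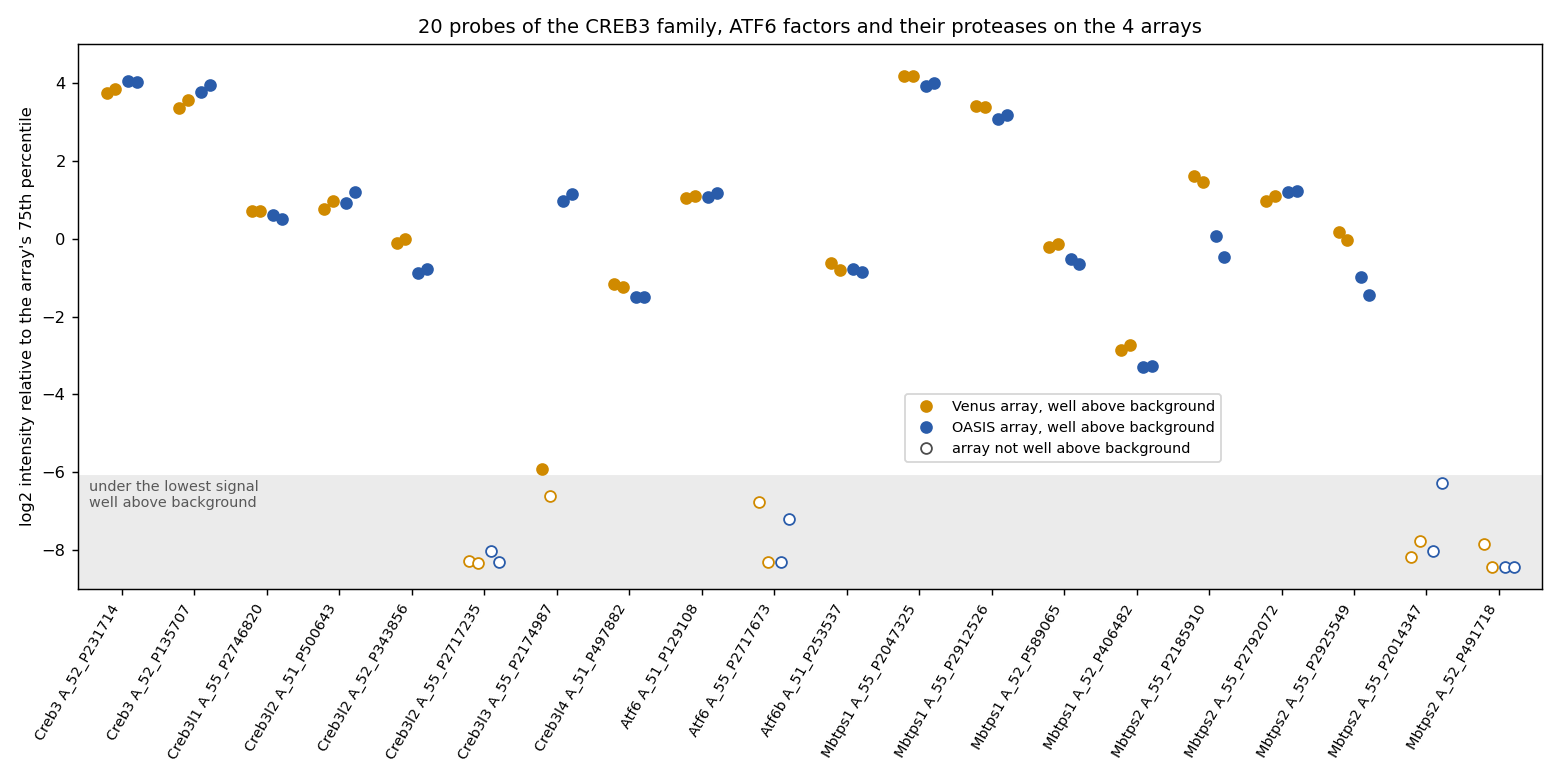
Log2 intensity relative to the 75th percentile of the array (vertical axis) for each of the 20 probes (horizontal axis), with a point for each of the 2 Venus and 2 OASIS arrays. Filled points were well above background, open points were not, and the grey band lies under the lowest signal well above background. Creb3l3 rises from the edge of the band with Venus to about 1 with OASIS, and 2 probes of Mbtps2 are lower with OASIS while the other tested Mbtps2 probe is not.

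Of the 20 probes, 16 were tested. The 4 others, A_55_P2717235 of Creb3l2, A_55_P2717673 of Atf6, and A_55_P2014347 and A_52_P491718 of Mbtps2, were not well above background on any array, and all 4 are annotated to Ensembl transcripts. Among the 16 tested, 1 was called higher in the OASIS-overexpressing podocytes (Creb3l3) and 2 were called lower (both of Mbtps2), where 8.36% of all probes tested were called, 5.89% higher and 2.47% lower. The groups did not overlap for 13 of the 16, 4 of them higher and 9 lower with OASIS, against 68% of all probes tested (28.6% higher and 39.4% lower), so that separation of the groups by itself was the common case on these arrays. A further 5 member probes passed the adjusted p but not the fold. In all, 8 of the 16 passed the adjusted p, 2 higher and 6 lower, and the corresponding share over all probes tested was 36.7%, with 17% higher and 19.7% lower. The median difference over all probes tested was -0.069.

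Creb3l1, the gene of OASIS, lies on chromosome 2 in band qE1 and has a single probe, A_55_P2746820. It read 0.71 and 0.72 with Venus and 0.61 and 0.49 with OASIS. Both OASIS arrays were thus the lower ones, by a difference of -0.17 (standard error 0.10, 95% interval -0.44 to 0.11, limma adjusted p = 0.298), which did not pass the test. The insert holds the N-terminal part only, and where on the transcript the probe lies was not analysed here. The probe therefore does not check the labels of the arrays.

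Creb3l3 encodes CREBH, which is known from liver and small intestine, where it activates genes of lipid transport and of the acute phase response. The gene lies on chromosome 10 in band qC1, and its probe A_55_P2174987 had background-corrected intensities of 15.3 and 10.2 with Venus and of 1868 and 2148 with OASIS. On the log2 scale these are -5.92 and -6.59 with Venus and 0.97 and 1.15 with OASIS. The Venus values lay at the limit of detection, since Venus 1 was well above background and Venus 2 was not, and the nearest arrays of the groups were 6.89 apart. The fitted difference was 7.32 (standard error 0.25, 95% interval 6.66 to 7.97, limma adjusted p = 0.00158), or 159-fold. The probe entered the test through the OASIS arrays alone, so that the filter favoured a difference. The interval and the fold rest in part on a Venus value that was not well above background. With Venus 2 raised to the lowest signal well above background on its array, Creb3l3 was at least 136-fold higher with OASIS. This bound holds only for the corrected intensities as deposited. The fitted difference was 4.84 with normexp background correction, which adds an offset of 50 to each spot, and the probe was not tested where all 4 arrays had to be well above background.

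Markers of the cell types in which Creb3l3 is usually found were followed beside it. Of 10 hepatocyte markers, Serpina1a and Tat were well above background on both arrays of each group, and Alb, Ttr, Fgb, Ahsg, Cps1 and Hnf4a were not on any array. The summed level of the hepatocyte list, as intensity relative to the 75th percentile, was 0.262 to 0.319 with Venus and 0.252 to 0.267 with OASIS. Of 6 enterocyte markers, Vil1 (villin) was well above background on all 4 arrays, and Fabp2, the intestinal fatty acid binding protein, only on the OASIS arrays. Vil1 lay near the limit of detection, at -5.78 and -5.46 with Venus and -5.69 and -4.96 with OASIS. Fabp2 was at least 7.86-fold higher with OASIS, on the corrected intensities as deposited. It entered the test through the OASIS arrays alone, and its limma adjusted p = 0.0123 rests on Venus values at background. The summed enterocyte level was 0.0551 to 0.0657 with Venus and 0.154 to 0.214 with OASIS. This sum is of unlogged intensities and follows Fabp2, the brighter of the 2 tested markers with OASIS. Fabp2 read -2.76 and -3.54 there, against -6.12 and -7.22 with Venus, where it was not well above background. Vil1, the other tested marker, had a difference of 0.30 (limma adjusted p = 0.481). The sum is therefore not read as a rise of the enterocyte list. Alpi and Cdx1 were not well above background on any array. The part of these markers in the rise of Creb3l3 was not tested.

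Creb3, whose protein is also named Luman and takes part in the Golgi stress response, lies on chromosome 4 in band qB1 and has 2 probes annotated to the same RefSeq transcript. Probe A_52_P135707 read 3.36 and 3.55 with Venus and 3.76 and 3.96 with OASIS. It rose by 0.40 (standard error 0.13, limma adjusted p = 0.0932), or 1.32-fold, under the fold limit. Probe A_52_P231714 read 3.75 and 3.83 with Venus and 4.05 and 4.02 with OASIS, a difference of 0.25 (95% interval -0.021 to 0.51, limma adjusted p = 0.144). The OASIS arrays were the higher ones for both probes of Creb3, and only the former passed the adjusted p.

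Creb3l2 encodes BBF2H7, the nearest relative of OASIS, which is known for the secretion of cartilage matrix. It lies on chromosome 6 in band qB1. Its 2 tested probes had differences of opposite sign, though the gap between these was just under the fold limit. Probe A_52_P343856 read -0.11 and -0.014 with Venus and -0.89 and -0.77 with OASIS. It fell by 0.77 (standard error 0.11, limma adjusted p = 0.015), to 0.588 of the Venus level, and missed the fold limit. Probe A_51_P500643, annotated to an Ensembl transcript, read 0.77 and 0.96 with Venus and 0.92 and 1.21 with OASIS, so that the groups overlapped, with a difference of 0.20 (95% interval -0.19 to 0.59, limma adjusted p = 0.378). All 4 spots of A_52_P343856, and the OASIS 1 spot of A_51_P500643, carried the scanner software's mark for an uneven background, and no other value remained for A_52_P343856 once such spots were left out.

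Creb3l4, known from prostate and testis, lies on chromosome 3 in band qF1. Its probe A_51_P497882 read -1.16 and -1.25 with Venus and -1.5 and -1.49 with OASIS. It fell by 0.29 (standard error 0.10, limma adjusted p = 0.0998), to 0.815 of the Venus level, just inside the limit on the adjusted p and well short of the fold. Of the CREB3 family, Creb3l3 was thus the only gene with a called probe.

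The ATF6 factors showed no called probe. Atf6, on chromosome 1 in band qH3, encodes the ER stress sensor that activates chaperone genes, and its probe A_51_P129108 read 1.04 and 1.10 with Venus and 1.08 and 1.17 with OASIS. The groups overlapped, and the difference of 0.054 had a 95% interval of -0.22 to 0.32 (limma adjusted p = 0.733). Atf6b, its relative on chromosome 17 in band qB1, read -0.61 and -0.81 with Venus and -0.77 and -0.86 with OASIS by probe A_51_P253537. These groups overlapped as well, with a difference of -0.10 and a 95% interval of -0.42 to 0.21 (limma adjusted p = 0.569). For both genes the interval lies inside the fold limit in either direction.

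**Figure D2:**
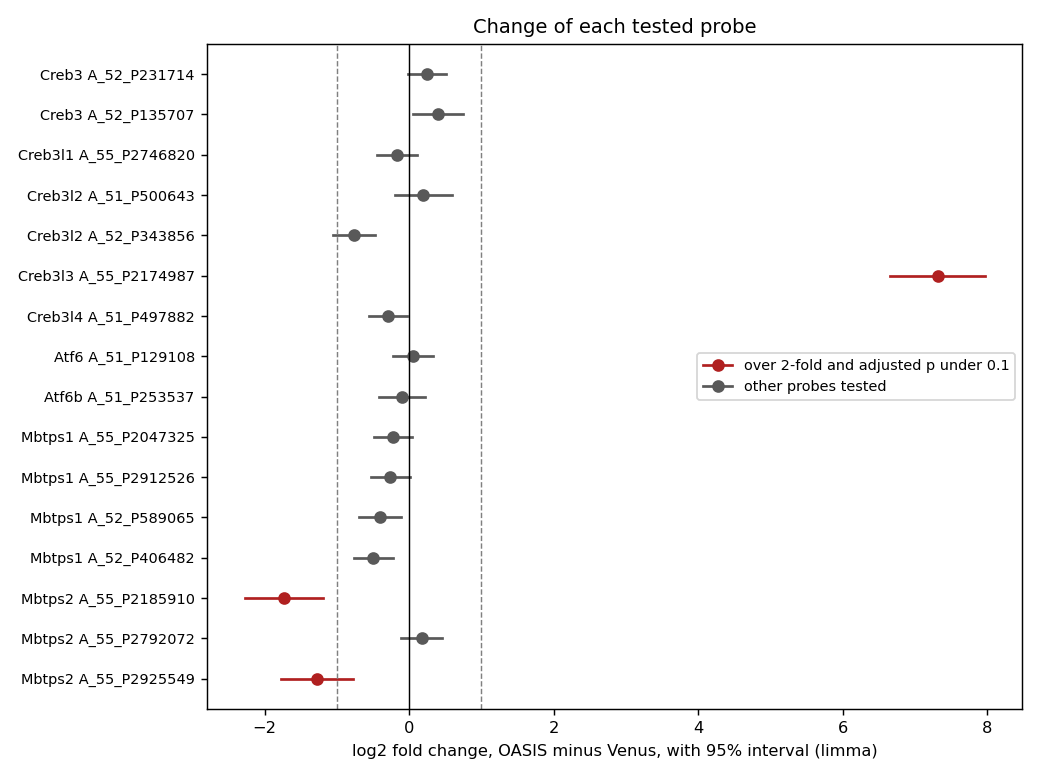
Log2 fold change, OASIS minus Venus, of each of the 16 tested probes (points) with its 95% interval from limma (bars). The dashed lines mark the fold limit of 2. Creb3l3 at 7.32 and the Mbtps2 probes at -1.73 and -1.27 lie beyond it, while the other 13 probes lie between -0.77 and 0.40.

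The proteases were read by 9 probes. Mbtps1, on chromosome 8 in band qE1, has 4 probes annotated to a single RefSeq transcript, all tested. A_55_P2047325 read 4.17 and 4.19 with Venus and 3.92 and 3.99 with OASIS. A_55_P2912526 read 3.40 and 3.38 with Venus and 3.08 and 3.18 with OASIS. A_52_P589065 read -0.22 and -0.14 with Venus and -0.51 and -0.65 with OASIS, and A_52_P406482 read -2.85 and -2.74 with Venus and -3.31 and -3.27 with OASIS. The OASIS arrays were the lower ones for all 4 probes. A_52_P406482 fell by 0.49 (standard error 0.10, limma adjusted p = 0.035) and A_52_P589065 fell by 0.40 (standard error 0.11, limma adjusted p = 0.063), whereas the other 2 had differences of -0.26 (limma adjusted p = 0.133) and -0.23 (limma adjusted p = 0.162). None passed the fold limit, and these 4 probes read the same gene and are not replicates.

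Mbtps2, on chromosome X in band qF4, gave different results by probe. A_55_P2185910 had background-corrected intensities of 2850 and 2717 with Venus and of 1004 and 704 with OASIS, or 1.62 and 1.46 against 0.071 and -0.46 on the log2 scale. It fell by 1.73 (standard error 0.21, 95% interval -2.28 to -1.19, limma adjusted p = 0.0107) and was 3.33-fold lower with OASIS. A_55_P2925549, annotated to an Ensembl transcript, read 0.16 and -0.037 with Venus and -0.98 and -1.44 with OASIS. It fell by 1.27 (standard error 0.19, limma adjusted p = 0.0165) and was 2.41-fold lower. A_55_P2792072, annotated to the same RefSeq transcript as A_55_P2185910, read 0.97 and 1.11 with Venus and 1.20 and 1.23 with OASIS. The OASIS arrays were the slightly higher ones for this probe, and its difference of 0.17 had a 95% interval of -0.11 to 0.46 (limma adjusted p = 0.291).

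For both called probes the OASIS arrays differed from each other more than the Venus arrays did, with a mean ± SD of -0.19 ± 0.37 with OASIS and 1.54 ± 0.11 with Venus for A_55_P2185910 (n = 2 each). The study names no test for the arrays, and the methods' t-test is 1 of several that its general statistics section lists. With the methods' t-test on the same values, neither probe passed the adjusted p, at 0.129 and 0.148. Which transcript forms each Mbtps2 probe reads was not analysed here.

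**Figure D3:**
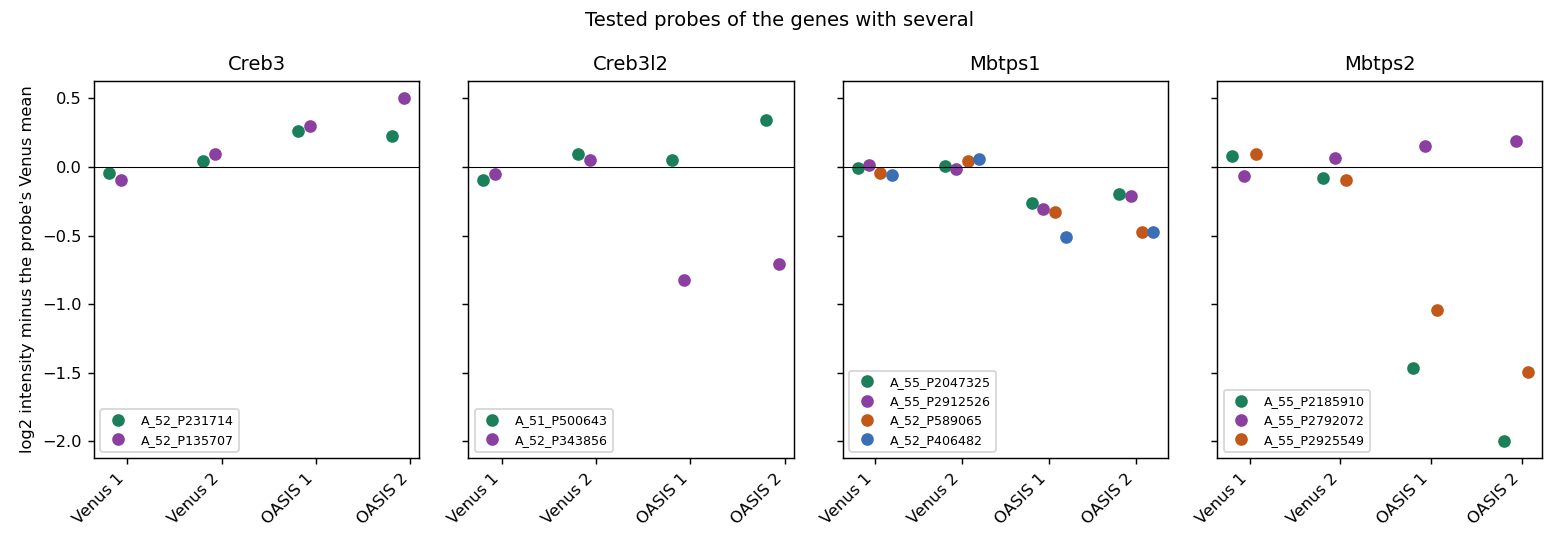
Log2 intensity minus the probe's mean over the Venus arrays (vertical axis) on each array (horizontal axis) for the tested probes of the 4 genes with several, coloured by probe. The Mbtps1 probes move together between -0.51 and -0.20 on the OASIS arrays, whereas A_55_P2792072 of Mbtps2 stays above 0 and the other Mbtps2 probes lie at -1.04 and below.

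Whether probes of a gene changed by different amounts was tested directly, as the difference between 2 probes on each array compared between the groups with limma over all 15986 such pairs on the array, a test chosen after the member values had been seen. The 4 member genes with several tested probes gave 11 pairs. Of these, 2 passed the fold limit and the adjusted p, both in Mbtps2, where 11% of all pairs did. The change of A_55_P2792072 exceeded that of A_55_P2185910 by 1.91 (standard error 0.24, limma adjusted p = 0.0158) and that of A_55_P2925549 by 1.44 (standard error 0.23, limma adjusted p = 0.0217). The called probes of Mbtps2 differed from each other by -0.46 (limma adjusted p = 0.059). For Creb3l2 the change of A_51_P500643 exceeded that of A_52_P343856 by 0.96 (standard error 0.13, limma adjusted p = 0.0166), just under the fold limit. The Creb3 probes differed by -0.15 (limma adjusted p = 0.544). The 6 Mbtps1 pairs differed by 0.032 to 0.27 (limma adjusted p = 0.200 to 0.896).

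The other genes of the pathway were counted by the brightest probe of each gene, beside 8.06% of all 16318 genes tested that were called, 6.21% higher and 1.85% lower, and a median difference of -0.056. The first list held substrates and partners of S1P and S2P. Of 8 genes tested, 1 was called higher and none lower, with a median of 0.13. The called gene was Insig1, which retains the SREBP precursors in the ER. It rose by 1.0 (standard error 0.16, limma adjusted p = 0.0183) and lay at the fold limit itself. It was not called without Venus replicate 2, at 0.85, or without OASIS replicate 1, at 0.89. Its call was also lost in several other settings listed under the processing, among them normexp background correction, at 0.58. Insig2, its relative, fell by 0.73 (limma adjusted p = 0.0139), and Scap, the escort of the SREBP precursors, fell by 0.45 (limma adjusted p = 0.0415), both within the fold limit. Srebf1 and Srebf2, the genes of the SREBP precursors, had differences of -0.25 (limma adjusted p = 0.132) and 0.20 (limma adjusted p = 0.407).

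Among 13 CREB and ATF factors without a membrane anchor, with Xbp1 and Ddit3, 2 were called higher and none lower, with a median of -0.18. Xbp1, whose spliced form is the transcription factor of the IRE1 branch of the unfolded protein response, read 4.62 and 4.55 with Venus and 6.76 and 6.51 with OASIS. It rose by 2.05 (standard error 0.13, limma adjusted p = 0.00369), and all 3 of its probes were called higher. Atf2 rose by 1.15 (standard error 0.16, limma adjusted p = 0.0138), but only 1 of its 3 tested probes was called. With the mean of its tested probes the difference of Atf2 was -0.050 (limma adjusted p = 0.708), and without OASIS replicate 2 it was 0.98, under the fold limit. Other probes than the brightest were called lower for Crebl2, 2 of 4 tested, and for Atf1, 1 of 3 tested, genes named here after their values had been seen. The brightest probe fell by 0.57 for Crebl2 (limma adjusted p = 0.0306) but rose by 0.50 for Atf1 (limma adjusted p = 0.032), both within the fold limit. Creb1, the founding member of the CREB group, fell by 0.52 (limma adjusted p = 0.0518) and Crebzf fell by 0.58 (limma adjusted p = 0.0315), both within the fold limit. Crem and Creb5 had differences of -0.18 (limma adjusted p = 0.353) and 0.20 (limma adjusted p = 0.222).

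Of the other ER sensors and the membrane-bound or stress-responsive NRF factors, 1 of 5 genes tested was called higher, with a median of 0.12. This was Eif2ak3, the gene of the ER kinase PERK, which rose by 1.18 (standard error 0.11, limma adjusted p = 0.00674) by 1 of its 2 probes. Ern1, the gene of IRE1, rose by 0.66 (limma adjusted p = 0.018), within the fold limit. Nfe2l2 fell by 0.34 (limma adjusted p = 0.0896), and Ern2 and Nfe2l1 had differences of 0.12 (limma adjusted p = 0.525) and -0.10 (limma adjusted p = 0.531).

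Among the ER genes known as ATF6 targets, 2 of 16 tested were called higher and none lower, with a median of 0.14. These were Xbp1 and Dnajc3, an ER co-chaperone gene also named p58IPK, which rose by 1.78 (standard error 0.15, limma adjusted p = 0.00645). Dnajc3 was not called with the methods' t-test (adjusted p = 0.106). The chaperone genes at the head of the list were not called: the difference was 0.065 for Hspa5, the gene of BiP (95% interval -0.24 to 0.37), 0.18 for Hsp90b1 (95% interval -0.075 to 0.44), -0.018 for Pdia4 (95% interval -0.29 to 0.25) and -0.083 for Pdia6 (95% interval -0.35 to 0.18). Syvn1 and Herpud1, genes of ER-associated degradation named here after their values had been seen, rose by 0.97 (limma adjusted p = 0.0101) and 0.94 (limma adjusted p = 0.00916), just under the fold limit. Edem1, named on the same ground, had 1 of its 2 tested probes called higher, while its brightest probe had a difference of -0.31 (limma adjusted p = 0.142). Derl3 was not tested.

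The list of CREB3L3 target genes of the liver was barely measurable in these cells. Of 10 genes on the array, 8 were not tested, among them Fgf21, Apoa5, Hamp and Crp. Apoc2 had a difference of -0.20 (limma adjusted p = 0.586). Apoa4, an apolipoprotein gene of intestine and liver, was at background level on the Venus arrays (well above it on neither) and read 0.92 and 0.37 on the OASIS arrays, at least 109-fold higher (limma adjusted p = 0.00133, on Venus values at background). With normexp background correction its fitted difference was 4.42, against 8.81 without it, so that the bound holds for the corrected intensities as deposited. A count over the 2 tested genes is not read against the background, since Apoa4 entered only through the OASIS arrays.

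Targets known for CREB3, CREB3L1 or CREB3L2 were called in 4 of 6 cases, all higher, with a median of 1.81. Over all genes tested, 6.21% were called higher. Col1a1, a collagen gene that OASIS activates in osteoblasts, rose by 6.08 (standard error 0.16, limma adjusted p = 0.00141) and all 3 of its tested probes were called. With normexp background correction its difference was 5.35. The COPII coat genes Sec24d and Sec23a, whose products carry secretory cargo out of the ER, rose by 2.72 (standard error 0.14, limma adjusted p = 0.00274) and by 2.07 (standard error 0.12, limma adjusted p = 0.00332). Arf4, a Golgi GTPase gene known as a CREB3 target, rose by 1.56 (standard error 0.15, limma adjusted p = 0.00709). It was not called with the methods' t-test (adjusted p = 0.108), and was not tested once spots on an uneven background were left out. Gcm1 and Cdkn1a had differences of -0.30 (limma adjusted p = 0.204) and -0.16 (limma adjusted p = 0.287). The list was chosen with earlier results of these data known. It is counted as a description, with no test of it as a set.

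**Figure D4:**
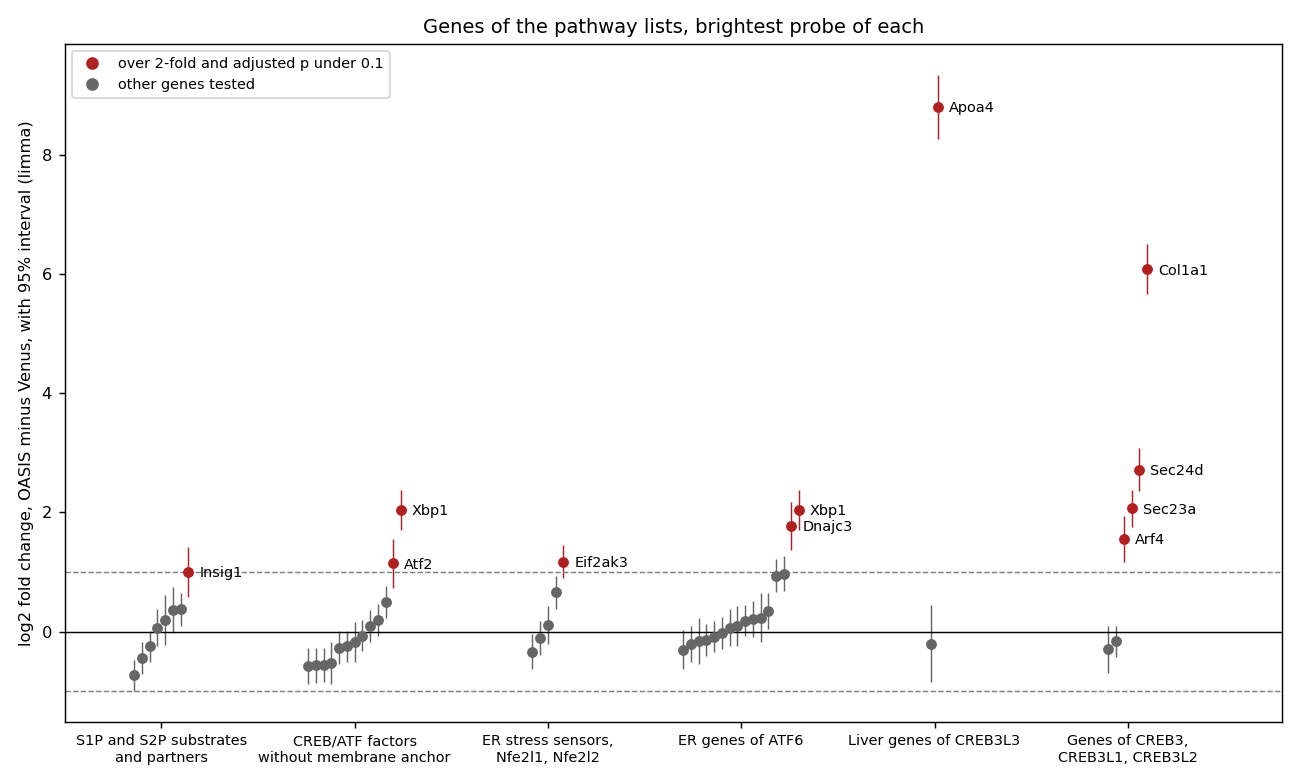
Log2 fold change, OASIS minus Venus, of the brightest probe of each tested gene in the 6 pathway lists (points) with its 95% interval from limma (bars). Called genes are red and named, and dashed lines mark the fold limit of 2. Most genes of the first 4 lists lie between the dashed lines, while Apoa4, Col1a1, Sec24d, Sec23a and Arf4 lie above them.

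The profiles most like those of the called genes were sought by the root mean square distance over the 4 arrays, each taken relative to its Venus mean, among 16317 other genes. For Creb3l3 they were Rbp4, Acp5 and Hoxd1. On the Venus arrays, none of these 3 was well above background and Creb3l3 was so on 1 array only, so that their distances and their order are not measured and are not given. For A_55_P2185910 of Mbtps2 they were Kif4-ps, 2900052L18Rik and Gm9465. On the OASIS arrays, Kif4-ps was not well above background, 2900052L18Rik was on 1 of the 2 and Gm9465 on both, so that distances and order are not given here either.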

How the data were processed

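The authors deposited Agilent scanner output for each array, with spot intensity corrected for background by Agilent Feature Extraction 12.1.0.3, and scaled intensities with a detection score and annotation per spot. Per the file headers the score is given beside each scaled intensity, and the deposited scaled intensity was the corrected intensity times a single factor per array (0.663 to 0.698). Log2 values were computed from the deposited corrected intensities, as the log2 ratio to each array's 75th percentile, after control and outlier spots were left out. All 20 member probes had 1 spot, with no outlier or saturated spot. limma 3.58.1 in R 4.3.3 with the data.table package (version 1.17.8) compared OASIS with Venus by lmFit and eBayes with Benjamini-Hochberg adjustment over 31598 probes. The fit was tested on simulated data.

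The members, the 6 pathway lists and the marker lists (podocyte, hepatocyte, enterocyte, macrophage, endothelial, tubular, fibroblast) were chosen with earlier results of these data known. The text names every member probe, the called genes of each list with up to 4 others in list order, and the 3 genes with the nearest profile. Exceptions are marked, and the value of 1 gene of the podocyte list is not reported here. A gene was represented by its brightest probe. Symbols, transcripts and bands are those of the deposited annotation, and all 9 symbols are in the RefSeq gene list. Coordinates and sequences are not given, as a genome of the matching build was not used here. Alternatives covered scaling, background correction, filters, the test, its threshold, the replicate block and leaving out each array, and leaving out spots on an uneven background was added after the values had been seen.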

Additional observations from a re-analysis of the deposited data

How the results depend on the processing

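Each of the 16 tested member probes kept its direction under every alternative that gave it a value, and of 286 values of single probes and probe pairs recomputed, 282 stayed on the same side of the threshold. The 4 others were the called Mbtps2 probes, A_55_P2185910 and A_55_P2925549, and their pairs with A_55_P2792072, all with the methods' t-test, which gave differences of -1.73, -1.27, 1.91 and 1.44 with adjusted p = 0.129, 0.148, 0.193 and 0.213. Under that test the count of member probes called lower went from 2 to 0 and that of pairs from 2 to 0, with 725 probes called in all against 2641. Creb3l3 was called in all 15 settings that tested it, at 4.84 (normexp) to 7.65 with adjusted p = 4.2e-06 to 0.0926. Since it entered the main test through the OASIS arrays alone, the filter favoured such a call, and these calls do not measure stability. The count of member probes called higher went from 1 to 0 where all 4 arrays had to be well above background, since Creb3l3 was then not tested. The Mbtps2 probes ranged from -2.0 to -1.47 and from -1.5 to -1.04. Normexp called 1222 probes in all. With normexp, 1 of the CREB and ATF factors was called, as with the methods' t-test and with the probes of each gene averaged. The count of substrates and partners of S1P and S2P went from 1 to 0 when scaled to the median, with normexp, with the authors' scaled values, with outlier spots kept, with the methods' t-test and with spots on an uneven background left out. The ATF6 targets went from 2 to 1 with the methods' t-test, where Dnajc3 was not called, and to 3 with spots on an uneven background left out, where Herpud1 was called at 1.02. The CREB3, CREB3L1 and CREB3L2 targets went from 4 to 3 in both of these, without Arf4, which had adjusted p = 0.108 with the methods' t-test and was not tested in the other, and the CREB3L3 targets from 1 to 0 where all 4 arrays had to be well above background. Leaving out 1 array at a time gave 1 member probe higher and 2 lower each time, 2 to 3 pairs, 0 to 1 substrates and partners of S1P and S2P, 1 to 2 CREB and ATF factors (1 without OASIS replicate 2) and 2 to 3 ATF6 targets. These 4 fits take the spread of the lone array from the other group. The cause of these differences was not tested, except where a filter removed the probe. The replicate numbers were not shown to pair the samples, since only 2 pairs exist (correlation of deviations 0.259). With the replicate number as a block, the count of probes called in all was 2702, Creb3l3 gave 7.32 (adjusted p = 0.0042), the Mbtps2 probes gave -1.73 (adjusted p = 0.0098) and -1.27 (adjusted p = 0.0114), and no call of a member probe, pair or list count changed. Signal over background limits Creb3l3 on the Venus arrays and 4 member probes on all arrays.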

Other observations

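Proteins that act on CREB3, CREB3L1 or ATF6 were listed after the member values had been seen, and of the 7 genes listed, 5 were tested. Pdia5, a disulfide isomerase known to act on ATF6, read -0.43 and -0.32 with Venus and 1.75 and 1.49 with OASIS. It rose by 2.0 (standard error 0.13, limma adjusted p = 0.00425) and was the only gene of the list that was called. This is 1 of 5 genes tested, beside 8.06% of all 16318 genes tested that were called, 6.21% higher. Crebrf, which is known to promote the degradation of CREB3, read -2.46 and -2.86 with Venus and -3.41 and -3.46 with OASIS, and fell by 0.78 (standard error 0.17, limma adjusted p = 0.0359), within the fold limit. Hcfc1, the gene of a CREB3 cofactor, had a difference of 0.33 (limma adjusted p = 0.119). Nucb1 and Wfs1, genes of proteins that restrain ATF6, had differences of 0.028 (limma adjusted p = 0.867) and -0.060 (limma adjusted p = 0.734). Thbs4 and Tm4sf20 were not tested. The median of the tested genes was 0.028, against -0.056 over all genes tested.

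In the Gene Ontology terms of the deposited table, 7 of the 9 member genes, all of the transcription factors, carried the term for the ER unfolded protein response, which 43 of the 26893 genes on the array carried. All of the 9 except Mbtps2 carried the term for an integral component of membrane, as did 19.8% of the genes on the array.

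Of the other marker lists, 4 of 5 macrophage markers were well above background on both arrays of each group, with a summed level of 17.5 to 18.5 with Venus and 14.3 to 14.6 with OASIS, and Adgre1 was not well above background on any array. Of the 4, Itgam fell by 0.51 (limma adjusted p = 0.043) and Csf1r rose by 0.74 (limma adjusted p = 0.072), both within the fold limit, and Ptprc and Cd68 had differences of 0.065 (limma adjusted p = 0.796) and -0.22 (limma adjusted p = 0.386). The sums are of unlogged intensities, so that the brightest markers weigh most, here Itgam for macrophages, Actn4 for podocytes and Aqp1 for tubules. The podocyte list summed to 62.0 to 64.7 with Venus and 60.4 to 65.1 with OASIS. By the brightest probe, Wt1 rose by 4.62 (limma adjusted p = 0.00215) and Cd2ap rose by 1.09 (limma adjusted p = 0.00832). The brightest Wt1 probe read -5.77 and -5.29 with Venus, near the limit of detection, so that the size of its rise is uncertain. Only 1 of 2 tested probes of Wt1 and 1 of 3 of Cd2ap were called higher, and 1 of 2 of Kirrel was called lower. The tubular list, with 3 of 5 markers well above background in each group, summed to 21.6 to 29.4 and 22.1 to 37.6, and by the brightest probe Lrp2 rose by 1.62 (limma adjusted p = 0.0148), with 2 of its 5 tested probes called. The endothelial list, with 1 of 4, summed to 0.0326 to 0.0408 and 0.0427 to 0.0443. Of 4 fibroblast markers, 2 were well above background on both Venus arrays and 3 on both OASIS arrays, and the list summed to 3.58 to 4.45 with Venus and 3.08 to 4.01 with OASIS. Pdgfra, the marker that entered with OASIS, was at least 7.96-fold higher (limma adjusted p = 0.00147, on Venus values at background). This bound also holds only for the corrected intensities as deposited.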
